A study of Mus musculus with 6 samples.

Results

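The D-type cyclins Ccnd1, Ccnd2 and Ccnd3, their partner kinases Cdk4 and Cdk6, and the CDK inhibitors Cdkn1a, Cdkn1b, Cdkn2a, Cdkn2c and Cdkn2d were followed by RNA sequencing in mouse peritoneal cells (PC). These 10 genes were chosen by name from the 17320 genes of the expression table, with earlier results of these data already known. All 10 had values. PC of C57BL/6 mice were grown for 9 days with stem cell factor (SCF) and interleukin-3 (IL-3), and the libraries are labelled as peritoneal cell-derived mast cells. Replicates 1, 2 and 3 were wild type (Mcemp1+/+) and replicates 4, 5 and 6 were labelled Mcemp1-/-, a CRISPR/Cas9 allele present in every cell of the mouse, with a small frameshift deletion in exon 1 of Mcemp1, a membrane protein gene of mast cells and other myeloid cells. All 6 libraries shared the cytokines and the culture time, and no comparison with freshly isolated cells was made here.

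D cyclins are the link between growth factor signals and the cell cycle: they are made when a cell is stimulated, bind CDK4 or CDK6, and the active kinases phosphorylate the retinoblastoma protein RB so that E2F factors can switch on the genes of DNA replication. The INK4 inhibitors bind CDK4 and CDK6 directly and keep the cyclin out, whereas the CIP/KIP inhibitors bind whole cyclin-CDK complexes and stop CDK2 above all. In mast cells the signal comes from SCF through its receptor KIT and from IL-3, and in blood cells generally cyclin D2, cyclin D3 and CDK6 are the prominent forms.

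The values were normalized counts on a scale close to CPM, that is, counts divided by the size of the library, and they summed to 932999 to 989051 per library. The depth was 14.94 to 24.81 M reads, an inference that holds only where 1 read gave the lowest value. Mcemp1 itself, at 7.68 to 16.9 in the wild type group, was 0.201 and 0.0849 in replicates 4 and 5, whereas replicate 6 kept 4.23 despite its Mcemp1-/- label. The deletion leaves the other exons countable, so that the transcript is a weak check of the labels. Replicates 4 and 5 correlated at 0.9945 across genes (which are not independent replicates) on the log2 scale, while replicate 6 was closer to wild type replicates 1 and 3 (0.98 with each) than to replicates 4 and 5 (0.92 with each), and it correlated with wild type replicate 2 at 0.92 as well. Mpo, the myeloperoxidase of neutrophil precursors, was 5105 to 6685 in wild type PC and 5753 in replicate 6 but 1.004 and 1.063 in replicates 4 and 5, so the mast cell label of the cultures did not cover all the RNA in 4 of the 6 libraries. Xist, an RNA of female cells, was 1297 and 1481 in replicates 3 and 6 and was under 1 in the rest, and wild type replicate 2 held 35265 normalized counts of small nucleolar, small nuclear and small Cajal body RNA against 24.8 to 29.1 elsewhere. Each member's comparison is therefore given with all 6 libraries and again without replicate 6, which leaves 3 libraries against 2. The choice of replicate 6 rests on values of these same libraries, so the p-values without it depend on that choice. With replicate 1, 2, 3, 4 or 5 left out instead, limma called 0 of the 10 genes. It is not stated whether the libraries came from separate mice or cultures, so each p-value refers to the spread among these 6 libraries alone, part of which may be technical.

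In normalized counts, 4 of the 5 inhibitors were well above wild type in replicates 4 and 5 and Cdk6 was below it, whereas replicate 6 was nearer to wild type for each of them. Cdkn1a and Ccnd1 were higher in each of the 3 libraries labelled Mcemp1-/- than in any wild type library, and Cdk6 was lower in each of them. With all 6 libraries, however, none of the 10 genes passed an adjusted p of 0.05 in limma, which called 2 of 13413 tested genes higher (0.0149%) and 8 lower (0.0596%). Without replicate 6, Cdkn1a, Cdkn2a, Cdkn2c and Cdkn2d rose and Cdk6 fell in Mcemp1-/- PC, against a background in which 19.5% of all tested genes rose and 22.5% fell. With 4 of 10 genes higher and 1 of 10 lower, 5 of the 10 were called, beside 5640 of 13412 tested genes. Counts this small cannot be set apart from the background in either direction, and no test of the 10 genes as a set was made.

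**Figure D1:**
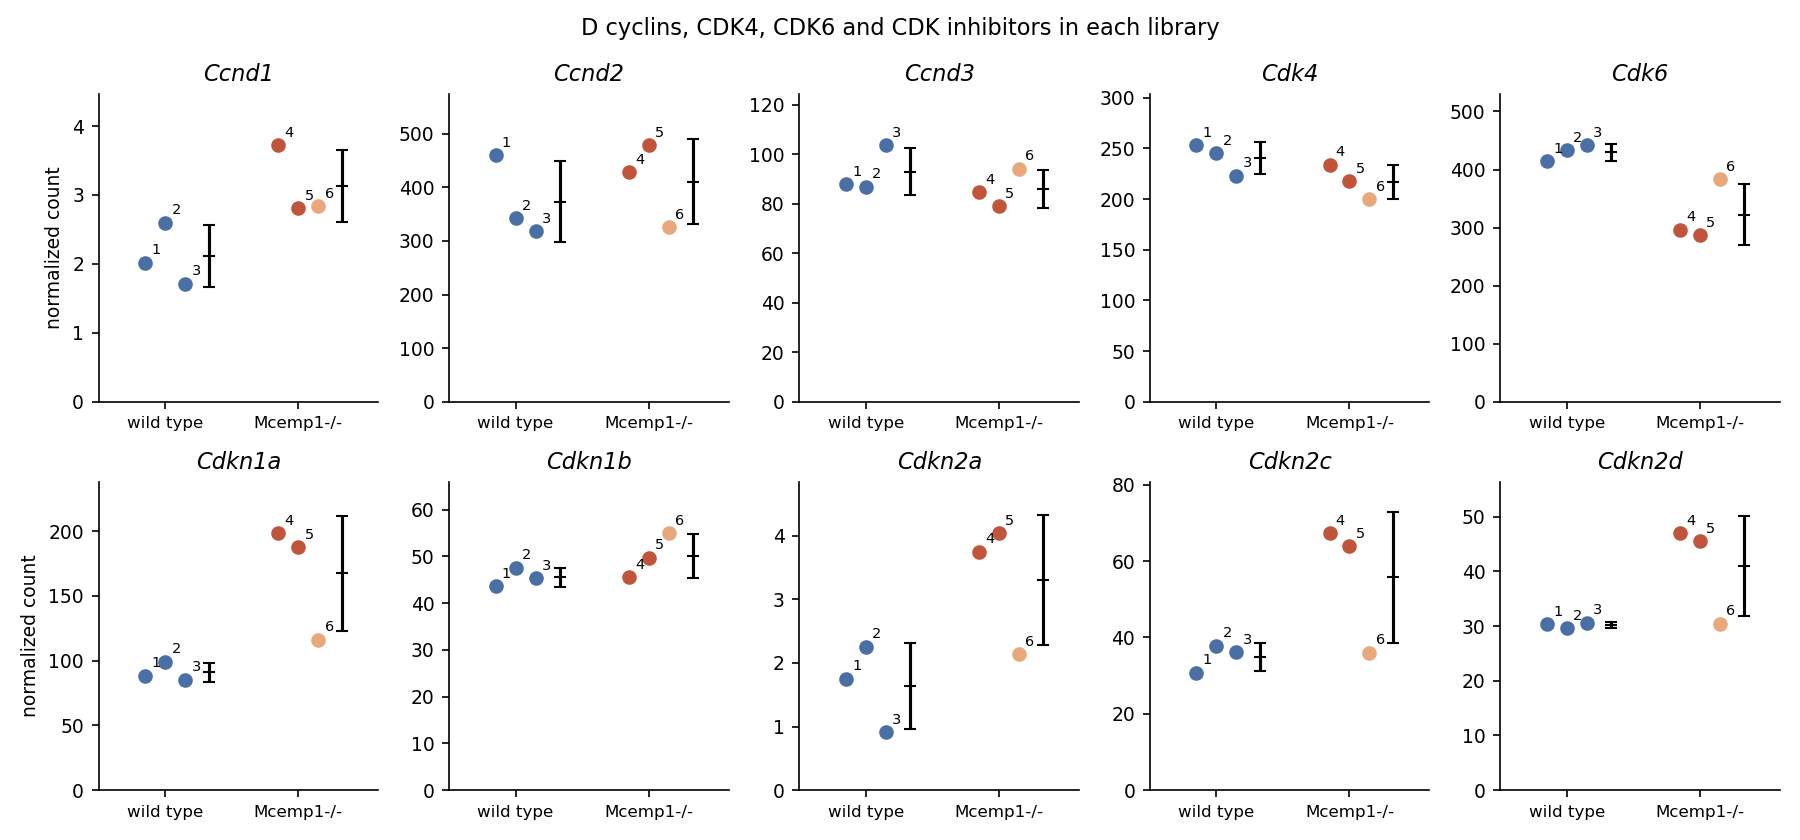
Normalized count (vertical axis, from 0) of each of the 10 genes in each library, numbered by replicate, with wild type in blue, Mcemp1-/- replicates 4 and 5 in red and the library labelled Mcemp1-/- replicate 6 in orange. Black bars are the group mean ± SD (n = 3). Cdkn1a, Cdkn2c and Cdkn2d show replicates 4 and 5 well above the other 4 libraries. The groups overlap for Ccnd2, Ccnd3, Cdkn1b and, on this scale, Cdk4, and through replicate 6 also for Cdkn2a, Cdkn2c and Cdkn2d.

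Before adjustment, 3 of the 10 genes were higher and 1 lower at p under 0.05 in limma, beside 11.6% and 13.8% of all tested genes. The higher genes were Cdkn1a, Cdkn2a and Cdkn2c and the lower gene was Cdk6. Groups did not overlap for 2 of the 10 genes upward, Ccnd1 and Cdkn1a, and 1 downward, Cdk6, beside 14.8% of all tested genes upward and 14.8% downward. These shares are of the same order as the background and a count this small cannot be set apart from it. The median log2 fold change was 0.27 over the 10 genes and -0.01 over all tested genes, and without replicate 6 it was 0.42 and -0.01.

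The D cyclins were expressed very unequally, and none of them passed the test in either comparison. Ccnd2, which encodes cyclin D2, had 460, 343 and 318 normalized counts in wild type replicates 1, 2 and 3 and 428, 479 and 325 in Mcemp1-/- replicates 4, 5 and 6. The groups overlapped fully, with wild type replicate 1 as high as replicates 4 and 5 and replicate 6 as low as replicates 2 and 3. The mean was 374 ± 75.8 in wild type PC and 411 ± 78.6 in Mcemp1-/- PC (SD, n = 3), a log2 fold change of 0.14 with a 95% interval from -0.34 to 0.62 (limma adjusted p = 0.65). Single libraries moved this value widely, to 0.30 without replicate 6 (interval -0.09 to 0.69, adjusted p = 0.19), 0.30 without replicate 1, 0.09 without replicate 2, 0.03 without replicate 3 and 0.02 without replicate 5, and it passed the test in none of these fits. A change within the interval from all 6 libraries was not detectable between these libraries. The gene lies at chr6:127125162-127152193 on the minus strand of mm10.

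Ccnd3, the cyclin D3 gene (chr17:47505051-47599691, plus strand), had 88.0, 86.9 and 104 normalized counts in replicates 1, 2 and 3 and 84.7, 79.0 and 94.2 in replicates 4, 5 and 6. The values again overlapped, and the log2 fold change of -0.11 had an interval from -0.36 to 0.14 (limma adjusted p = 0.48). Without replicate 6 both Mcemp1-/- libraries lay below every wild type library, and the log2 fold change of -0.18 still did not pass (limma adjusted p = 0.18). Ccnd3 shares 361 exonic bases with Bysl on the opposite strand (mean 52.0 normalized counts).

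Ccnd1, the cyclin D1 gene (chr7:144929931-144939925, minus strand), was expressed at a low level. It had 2.02, 2.60 and 1.71 normalized counts in replicates 1, 2 and 3 and 3.73, 2.81 and 2.84 in replicates 4, 5 and 6. Each library labelled Mcemp1-/- was above each wild type library, replicate 6 included. The log2 fold change was 0.48 (SE 0.21, interval -0.03 to 0.99, limma adjusted p = 0.21), and 0.54 without replicate 6 (adjusted p = 0.12). Fold changes are on the log2(value + 0.479) scale, which understates the change of a gene this low. Ccnd1 also shares 1100 of its 4709 exonic bases with LTO1 on the opposite strand, whose mean level of 13.6 normalized counts was above that of Ccnd1. Since no source used here gives the use of strand in counting, reads within the shared bases cannot be told apart.

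Of the 2 kinases, Cdk6 was lower in PC labelled Mcemp1-/- and the groups overlapped for Cdk4 in the values as deposited. Cdk6 (chr5:3341485-3531008, plus strand) had 414, 434 and 442 normalized counts in wild type replicates 1, 2 and 3, against 297, 287 and 383 in replicates 4, 5 and 6. The wild type libraries agreed to within a coefficient of variation of 3.40%, replicates 4 and 5 stood at 0.690 and 0.667 of their mean, and replicate 6 at 0.892. With all libraries the log2 fold change was -0.43 (SE 0.12, adjusted p = 0.15 from limma). Without replicate 6 Cdk6 fell by 0.56 on the log2 scale (SE 0.05, adjusted p = 0.00056). In bulk RNA, fewer cells of a type and less RNA per cell cannot be told apart, and this holds for each difference given here.

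Cdk4 (chr10:127063534-127067920, plus strand) had 254, 245 and 223 normalized counts in replicates 1, 2 and 3 and 234, 218 and 200 in replicates 4, 5 and 6. The groups overlapped, and the log2 fold change of -0.15 had an interval from -0.35 to 0.06 (limma adjusted p = 0.29), or -0.09 without replicate 6 (adjusted p = 0.36). The overlap depended on the scaling: with the small RNA genes removed and each library rescaled, Cdk4 was lower in each library labelled Mcemp1-/- (log2 fold change -0.21, adjusted p = 0.17), and it was so too without replicate 3 or without replicate 4 (-0.20 in each, adjusted p = 0.30 and 0.42 in limma). Cdk4 shares 641 exonic bases with Tspan31 on the opposite strand (mean 65.4 normalized counts). The share of Cdk6 in the summed level of both kinases per kb of exon was 27.5%, 29.1% and 31.6% in replicates 1, 2 and 3, and 22.8%, 23.4% and 30.8% in replicates 4, 5 and 6. Replicate 6 lay among the wild type libraries in this measure, while replicates 4 and 5 lay below all of them.

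The 250 bases before the start of Cdk4 are shown because they hold 4 copies of the E-box CACGTG, the palindromic letters bound by MYC and related factors, here in capitals. Windows with at least 4 copies made up 0.0213% of the 32851 promoter windows of the same length in RefSeq (GRCm38.p6), and 6.02% held at least 1. The copies lie between 172 and 11 bases before the start, at chr10:127063285-127063534 on the plus strand, and the window of Cdk6 holds 1 copy. A match of letters is a description of the window, not a binding site.
Cdk4: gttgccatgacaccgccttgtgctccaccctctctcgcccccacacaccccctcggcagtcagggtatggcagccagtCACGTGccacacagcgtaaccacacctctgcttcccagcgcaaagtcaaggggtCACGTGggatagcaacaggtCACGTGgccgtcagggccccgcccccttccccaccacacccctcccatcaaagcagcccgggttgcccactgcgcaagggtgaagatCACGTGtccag

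The CIP/KIP inhibitors went apart: Cdkn1a was higher in all libraries labelled Mcemp1-/- and the groups overlapped for Cdkn1b. Cdkn1a encodes p21, the inhibitor best known as a target of p53 and as a brake on proliferation in differentiating cells. It had 88.3, 99.3 and 85.4 normalized counts in wild type replicates 1, 2 and 3, and 198, 188 and 116 in replicates 4, 5 and 6. Relative to the wild type mean these were 2.18, 2.06 and 1.28 times, so the groups did not overlap but replicate 6 lay nearer to the wild type libraries than to replicates 4 and 5. The means were 91.0 ± 7.32 and 167 ± 44.7 (SD, n = 3), the log2 fold change was 0.84 (SE 0.21, interval 0.32 to 1.36), and the adjusted p of 0.15 from limma did not pass. Without replicate 6 Cdkn1a rose by 1.08 on the log2 scale (SE 0.08, limma adjusted p = 0.00023).

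Cdkn1b encodes p27, whose protein is controlled to a large part by degradation through the ubiquitin ligase subunit SKP2, a step that RNA does not show. Its values were 43.6, 47.6 and 45.4 in replicates 1, 2 and 3 and 45.6, 49.8 and 54.9 in replicates 4, 5 and 6. The highest value was that of replicate 6 and the groups overlapped. The log2 fold change was 0.13 with an interval from -0.08 to 0.35 (limma adjusted p = 0.35), and 0.06 without replicate 6 (interval -0.11 to 0.24), so that a change as large as that of Cdkn1a lies outside both intervals. Cdkn1b lies at chr6:134920401-134925513 on the plus strand.

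Cdkn1a spans chr17:29090976-29100727 on the plus strand, and RefSeq (GRCm38.p6) gives it 2 starts that lie 2790 bases apart. Both windows are shown because Cdkn1a had the lowest unadjusted p of the 10 genes and because they differ in their letters. In the window of the upstream start (chr17:29090729-29090978), capitals mark 2 copies of CATG with 6 bases between them, the core letters of a p53 response element, 48 bases before the start. This spacing of CATG occurs in 161 of 32851 promoter windows (0.49%), and among the 8 members with a window only there. In the window of the downstream start (chr17:29093519-29093768), capitals mark the GC box GGGCGG, searched on both strands, with 1 copy at 104 and 1 at 46 bases before the start.
Cdkn1a upstream start: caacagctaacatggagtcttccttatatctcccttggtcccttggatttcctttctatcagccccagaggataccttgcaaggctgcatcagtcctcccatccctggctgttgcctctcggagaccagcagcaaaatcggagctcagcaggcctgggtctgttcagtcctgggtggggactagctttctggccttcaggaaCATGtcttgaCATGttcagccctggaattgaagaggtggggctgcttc
Cdkn1a downstream start: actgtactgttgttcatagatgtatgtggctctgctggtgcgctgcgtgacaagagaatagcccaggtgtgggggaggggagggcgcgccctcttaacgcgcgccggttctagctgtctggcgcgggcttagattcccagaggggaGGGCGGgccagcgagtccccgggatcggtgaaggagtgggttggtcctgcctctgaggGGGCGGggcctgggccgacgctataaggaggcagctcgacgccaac
The GC box occurs in 32.7% of all windows and in 8 of the 12 windows of the members, some of which have more than 1 window. The deposited gene table has 1 value per gene, so that the level of each start was not measured, and no statement on p53 or on factors of the GC box follows from these letters.

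The 3 INK4 genes shared a pattern: replicates 4 and 5 lay well above the wild type libraries, and replicate 6 lay inside the wild type range. Cdkn2c, which encodes p18INK4c, had 30.8, 37.9 and 36.2 normalized counts in replicates 1, 2 and 3, and 67.3, 63.9 and 36.0 in replicates 4, 5 and 6. The first 2 of the libraries labelled Mcemp1-/- were thus at 1.93 and 1.83 times the wild type mean and replicate 6 at 1.03 times. With all libraries the log2 fold change was 0.62 (SE 0.25, adjusted p = 0.20 from limma), and without replicate 6 Cdkn2c rose by 0.90 (SE 0.10, adjusted p = 0.0011). The gene lies at chr4:109660876-109667189 on the minus strand.

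Cdkn2d encodes p19INK4d and lies at chr9:21288410-21291407 on the minus strand. Its wild type values were the tightest of the 10 genes, 30.4, 29.6 and 30.6 normalized counts, and it had 46.9, 45.5 and 30.4 in replicates 4, 5 and 6. Replicate 6 was inside the wild type range, and replicates 4 and 5 were at 1.55 and 1.51 times the wild type mean. The log2 fold change was 0.41 (SE 0.17, limma adjusted p = 0.20), and without replicate 6 Cdkn2d rose by 0.61 (SE 0.06, adjusted p = 0.00080).

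Cdkn2a encodes p16INK4a and, from a shared exon read in another frame, p19ARF, which stabilizes p53, and a gene-level value cannot separate them. It was low, with 1.75, 2.26 and 0.912 normalized counts in replicates 1, 2 and 3 and 3.75, 4.03 and 2.14 in replicates 4, 5 and 6. Replicates 4 and 5 were above every wild type library and replicate 6 was between wild type replicates 1 and 2. The log2 fold change was 0.85 (SE 0.35, limma adjusted p = 0.20), and without replicate 6 Cdkn2a rose by 1.10 with a wide interval from 0.32 to 1.88 (adjusted p = 0.035). The study placed Cdkn2a (chr4:89274471-89294653, minus strand) in a list of genes chosen on these samples, so its direction is not independent evidence. Of the other inhibitors of these families, Cdkn2b, the p15INK4b gene, was at 0.202 to 0.513 normalized counts and under the filter for testing, and Cdkn1c, the p57 gene, was not in the table used here.

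**Figure D2:**
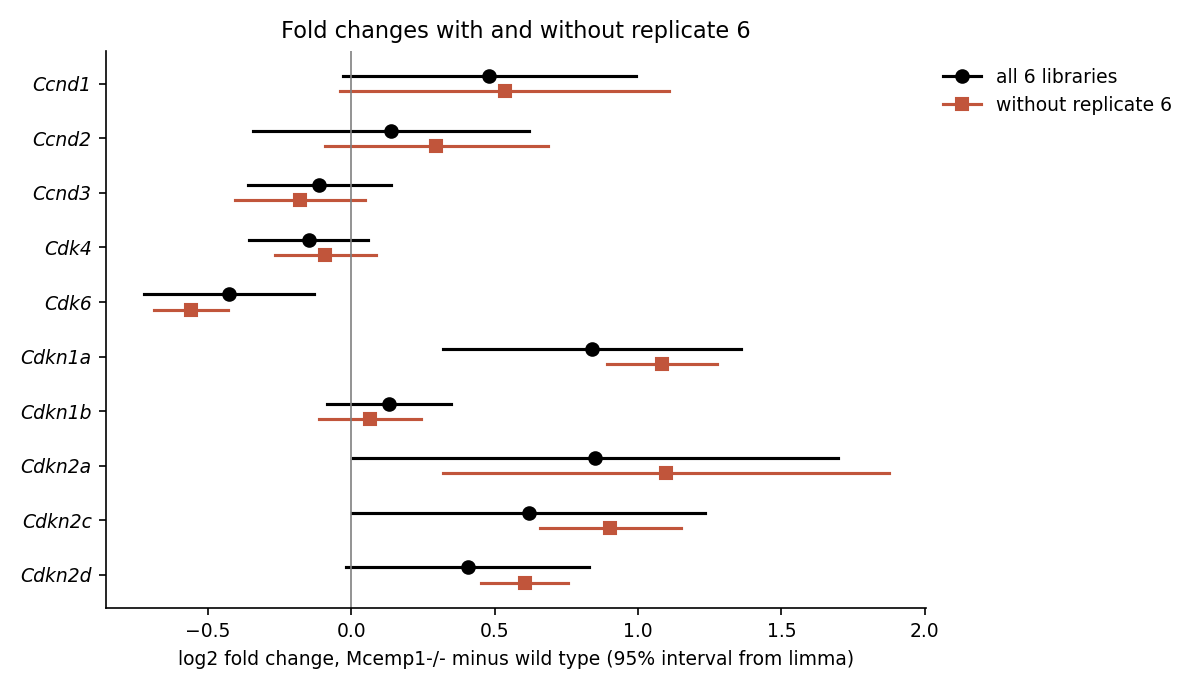
Log2 fold change of each gene, Mcemp1-/- minus wild type, with its 95% interval from limma, for all 6 libraries (black circles) and without replicate 6 (red squares). The intervals of Cdk6, Cdkn1a, Cdkn2c and Cdkn2d narrow and move away from 0 without replicate 6, and those of Ccnd1, Ccnd2, Ccnd3, Cdk4 and Cdkn1b include 0 in both.

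Summed markers of mast cells separated replicates 4 and 5 from the other 4 libraries, as Cdk6, Cdkn2c and Cdkn2d did. The summed level of 10 mast cell genes was 23066 to 23934 in wild type PC, and 43646, 44867 and 24151 in replicates 4, 5 and 6, which is 1.86, 1.92 and 1.03 times the wild type mean. Cdkn2c, at 1.93, 1.83 and 1.03 times, had nearly the same ratios, and Cdkn2d, at 1.55, 1.51 and 1.01 times, was below them in replicates 4 and 5. Cdkn1a (2.18, 2.06 and 1.28 times) and Cdkn2a (2.29, 2.46 and 1.30 times) were above them in all 3 libraries, and Cdkn1b was at 1.001, 1.092 and 1.206 times, highest in replicate 6. Without replicate 6, limma called 9 of these 10 genes higher and 1 lower, beside 19.5% and 22.5% of all tested genes. Cpa3, the mast cell carboxypeptidase, rose by 0.92 on the log2 scale, and Cma1, a chymase, rose by 0.70. Cpa3 led the sum (wild type mean 14418). Hdc was the lower gene, with 146, 143 and 117 normalized counts against 86.8, 92.8 and 62.5. With all 6 libraries, 6 of the 10 genes were higher without overlap and 1 was lower, beside 14.8% of all tested genes each way. Among the 6 were Ms4a2 (1410 in replicate 6 against 992 to 1051 in wild type) and Mitf (125 against 84.5 to 108). Hdc, Ms4a2 and Mitf are named after their values were seen. Kit, the SCF receptor, was 1700, 1704 and 1800 in replicates 1, 2 and 3 and 3265, 3221 and 1827 in replicates 4, 5 and 6.

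Markers of neutrophil precursors and macrophages were low in replicates 4 and 5. The summed level of 10 neutrophil precursor genes was 8700 to 14454 in wild type PC, 477 and 352 in replicates 4 and 5, and 13126 in replicate 6, led by Mpo and S100a9, a calcium-binding protein gene. Without replicate 6, 9 of these 10 genes were lower in limma and 0 higher, beside 22.5% and 19.5% of all tested genes. Ctsg, a granule protease also made by mast cells, was not called. The sum of 10 macrophage genes, led by Lyz2, the lysozyme gene, and Itgam, an integrin gene, was 711 to 1451 in wild type PC and 21.9, 6.66 and 1249 in replicates 4, 5 and 6, and without replicate 6 all 8 tested genes of that list were lower. No value of any gene in the expression table was listed at 0, so a marker could not be listed at 0 either. The part of these cells in the levels of Cdk6 and the inhibitors was not tested. The lymphocyte list, of which 3 of 6 genes were in the table, summed to 4.11 to 8.63 and to 6.73 to 7.62, with a median log2 fold change of 0.35 and none called. Its most abundant genes, both of B cells, were Ms4a1 (log2 fold change -0.06) and Cd79a, which was higher in each library labelled Mcemp1-/- (2.74, 2.68 and 2.66 normalized counts against 1.03, 2.09 and 1.25) at a log2 fold change of 0.75 and a limma adjusted p of 0.16.

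The 7 eosinophil genes had sums of 50.4 to 135 in wild type PC and 10.5, 11.1 and 11.6 in replicates 4, 5 and 6. Prg2 and Epx, both of eosinophil granules, had log2 fold changes of -5.70 and -5.59 with all 6 libraries (adjusted p = 0.017 for each in limma) and of -5.61 and -5.56 without replicate 6. They were the 2 genes called among 6 tested, both lower. Without replicate 6, 5 of 7 were lower and 0 higher, beside 22.5% and 19.5% of all tested genes. Ccr3 and Il5ra, receptor genes of eosinophils named after their values were seen, had log2 fold changes of 0.10 and 0.58 (adjusted p = 0.84 and 0.33 in limma) and made up most of the sum in the libraries labelled Mcemp1-/-. Siglecf, a lectin gene likewise named afterwards, was 3.02 in replicate 6 but 0.201 and 0.0849 in replicates 4 and 5.

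**Figure D3:**
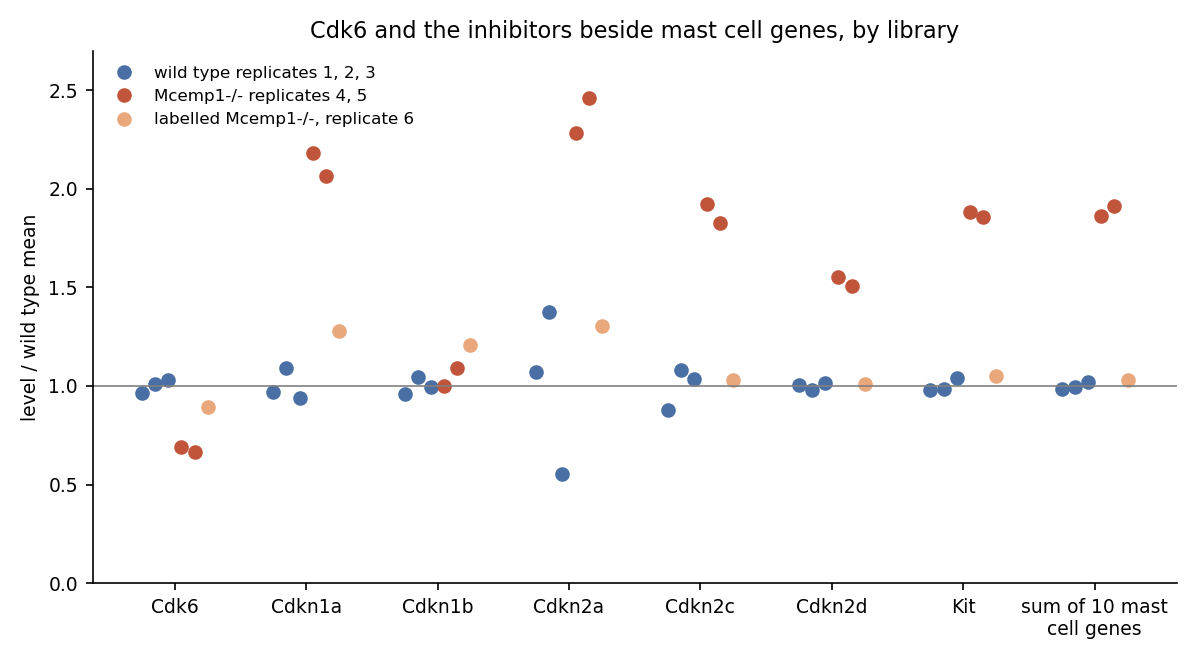
Level of Cdk6, the 5 inhibitors, Kit and the sum of 10 mast cell genes in each library, divided by the wild type mean (vertical axis, from 0; the line marks 1). Replicates 4 and 5 lie near 1.9 for Kit and the mast cell sum and between 1.5 and 2.5 for every inhibitor except Cdkn1b, while the library labelled Mcemp1-/- replicate 6 lies near 1 for Cdkn2c and Cdkn2d.

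To compare the genes with each other, levels were divided by the exonic length of each gene. On this scale, normalized counts per kb of exon, Cdk4 was the highest in both groups, at a mean of 74.0 in wild type PC and 66.8 in Mcemp1-/- PC. Among the D cyclins Ccnd2 was far above the others, and it took 82.4%, 77.7% and 73.5% of their sum in replicates 1, 2 and 3 and 81.3%, 84.1% and 75.3% in replicates 4, 5 and 6. In wild type PC the order after Cdk4 was Ccnd2 (39.7), Cdk6 (30.7), Cdkn1a (25.6), Cdkn2d (19.2), Cdkn2c (13.01), Ccnd3 (10.6), Cdkn1b (10.01), Cdkn2a (1.40) and Ccnd1 (0.448). Only the neighbours Cdkn2c and Ccnd3, and Ccnd3 and Cdkn1b, overlapped in their ranges over the 3 libraries.

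In PC labelled Mcemp1-/- the order changed mainly through Cdkn1a and Cdk6. Cdkn1a, at 47.1 per kb, stood next to Cdk4 and above Ccnd2 (43.7), and Cdk6 (23.0) had dropped below Cdkn2d (26.0), but the ranges of both these pairs overlapped because of replicate 6. Cdkn2c (20.8) overlapped Cdk6 as well, and Cdkn1b (11.0) overlapped Ccnd3 (9.80), while Cdkn2a (2.82) and Ccnd1 (0.664) remained at the foot. The summed inhibitors per kb divided by the summed kinases per kb gave 0.620, 0.689 and 0.676 in replicates 1, 2 and 3, and 1.33, 1.37 and 0.892 in replicates 4, 5 and 6. Each library labelled Mcemp1-/- was thus above each wild type library in this ratio, which is a description of RNA levels and was given no test. The ratio of Cdkn1a to Cdk6 in normalized counts was 0.193 to 0.229 in wild type PC and 0.669, 0.654 and 0.303 in replicates 4, 5 and 6.

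**Figure D4:**
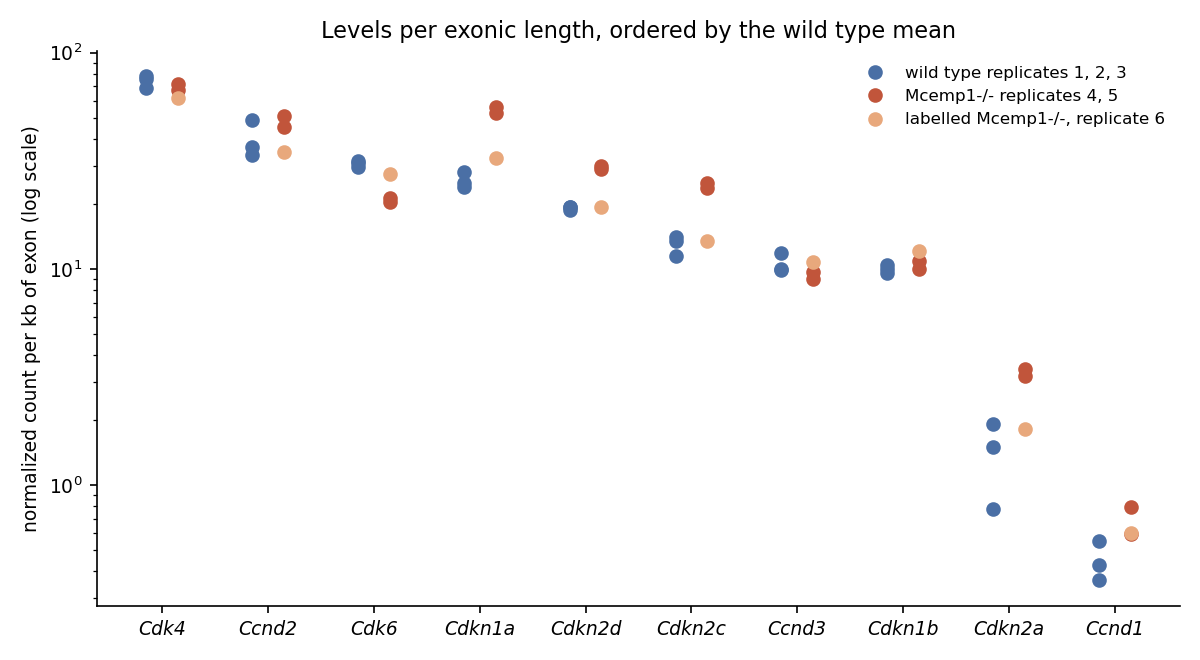
Normalized count per kb of exon (log scale) of the 10 genes in each library, ordered by the wild type mean. Cdk4 and Ccnd2 stand at the top and Cdkn2a and Ccnd1 at the foot, and Cdkn1a in replicates 4 and 5 (55.8 and 52.8) reaches the level of Ccnd2.

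Downstream of the D cyclins, genes of the RB and E2F axis were mixed. None of the 18 tested genes of 19 passed with all 6 libraries, and the median log2 fold change was 0.06. At an unadjusted p under 0.05 in limma, 6 were higher and 1 lower, beside 11.6% and 13.8% of all tested genes. Ccna2, the cyclin A2 gene and an E2F target, had 238, 248 and 236 normalized counts in replicates 1, 2 and 3 and 298, 289 and 275 in replicates 4, 5 and 6, without overlap (log2 fold change 0.26, limma adjusted p = 0.15). Tfdp1, the DNA-binding partner of E2F, had 294, 285 and 312 against 197, 182 and 311, so that only replicates 4 and 5 were low. Without replicate 6, 7 genes of the list rose and 3 fell, beside 19.5% and 22.5% of all tested genes. Ccna2 rose by 0.29 and Tfdp1 fell by 0.65. Rb1, the RB gene, and its relative Rbl2 rose by 0.54 and 0.55 in that fit (adjusted p = 0.0014 and 0.0062 from limma), and both are named after their values were seen.

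Other cyclins showed small differences. Ccne1, the cyclin E1 gene that acts right after the D cyclins, had 25.7, 23.8 and 21.7 normalized counts against 26.5, 23.1 and 25.7 (log2 fold change 0.08, limma adjusted p = 0.61, and 0.06 without replicate 6). The mitotic cyclin Ccnb1 had 172, 161 and 152 against 182, 176 and 167 (0.12, limma adjusted p = 0.30, and 0.15 without replicate 6 with adjusted p = 0.11). Its relative Ccnb2 had 98.7, 107 and 103 against 141, 134 and 112, all higher in the libraries labelled Mcemp1-/- (0.31, limma adjusted p = 0.16, and 0.41 without replicate 6 with adjusted p = 0.0028). Ccna1 was not in the table used here.

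Among 11 genes of cycling cells none passed with all libraries. Before adjustment, 3 were higher and 0 lower at p under 0.05 in limma, beside 11.6% and 13.8% of all tested genes. Mki67, the Ki-67 proliferation marker, had 993, 1043 and 1196 normalized counts in replicates 1, 2 and 3 and 1334, 1335 and 1412 in replicates 4, 5 and 6. Top2a, a topoisomerase of dividing cells, had 743, 769 and 767 against 864, 842 and 824. Both were higher in every library labelled Mcemp1-/-, with log2 fold changes of 0.34 and 0.15 (adjusted p = 0.15 and 0.19 in limma). Without replicate 6, 4 genes of this list rose and 1 fell, beside 19.5% and 22.5% of all tested genes. Mki67 and Top2a were among those that rose (0.31 and 0.17, adjusted p = 0.030 and 0.035 in limma).

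Of the p53 list none of 16 genes passed, and the median log2 fold change was 0.08. Before adjustment, 3 were higher and 4 lower at p under 0.05 in limma, beside 11.6% and 13.8% of all tested genes. Ccng1, the cyclin G1 gene and a p53 target, had 215, 234 and 225 normalized counts against 276, 278 and 255 (log2 fold change 0.26, adjusted p = 0.15), and Mdm4, a regulator of p53, had a log2 fold change of 0.02. Without replicate 6, 3 rose and 5 fell, beside 19.5% and 22.5% of all tested genes. Ccng1 was among those that rose (0.30, adjusted p = 0.0066 in limma). Named after their values were seen, Trp53 itself (138, 139 and 128 against 116, 100 and 118) fell in that fit and Mdm2, its inhibitor (78.4, 73.3 and 75.8 against 86.9, 88.7 and 84.8), rose. For both genes replicate 6 lay with replicates 4 and 5, unlike Cdkn2c and Cdkn2d. The other genes called without replicate 6 are likewise named after their values were seen. Aen (-0.53 on the log2 scale), Gadd45a (-0.57), Btg2 (-2.33) and Plk2 (-1.67) fell, and Zmat3 (0.59) rose.

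The genes that load, activate and degrade cyclin D-CDK complexes had a median log2 fold change of -0.13 over 14 genes. None was called with all 6 libraries. At an unadjusted p under 0.05 in limma, 1 was higher and 1 lower, beside 11.6% and 13.8% of all tested genes. Hsp90ab1, the chaperone that folds CDK4 together with CDC37, had 2600, 2526 and 2030 normalized counts against 1949, 1822 and 2043, and Ddb1, part of the ligase that degrades D cyclins, had 569, 560 and 533 against 501, 462 and 503. Without replicate 6, 3 genes of this list rose and 6 fell, beside 19.5% and 22.5% of all tested genes. Ddb1 was among those that fell (-0.20 on the log2 scale), while Hsp90ab1 did not pass (-0.33, limma adjusted p = 0.064). Skp2, the subunit that marks p27 for degradation and named after its values were seen, had 30.9, 32.3 and 28.5 against 20.1, 20.9 and 32.0.

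Regulators of the INK4 genes were mostly close to level, with a median of -0.06 over 11 genes and none called. At an unadjusted p under 0.05 in limma, 0 were higher and 1 lower, beside 11.6% and 13.8% of all tested genes. Ezh2, the methyltransferase of Polycomb complexes that silence Cdkn2a, had 119, 124 and 128 normalized counts against 156, 148 and 128, and its partner Suz12 had 237, 228 and 235 against 208, 228 and 234. Without replicate 6, 2 rose and 1 fell, beside 19.5% and 22.5% of all tested genes. Ezh2 was 1 of those that rose (by 0.30). Id1, which represses Cdkn2a and was named after its values were seen, had 18.3, 19.0 and 16.1 against 0.201, 0.170 and 13.9.

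Upstream of the D cyclins, 11 genes of mitogen signalling had a median log2 fold change of 0.09, and none was called with all libraries. Before adjustment, 1 was higher and 1 lower at p under 0.05 in limma, beside 11.6% and 13.8% of all tested genes. The kinase gene Akt1, which acts downstream of KIT, had a log2 fold change of 0.09 and passed in neither fit. Without replicate 6, 3 rose and 2 fell, beside 19.5% and 22.5% of all tested genes. Myc, which promotes D cyclin and Cdk4 expression and represses Cdkn1a and was named after its values were seen, had 147, 160 and 145 normalized counts in replicates 1, 2 and 3 and 80.0, 70.3 and 119 in replicates 4, 5 and 6. The groups did not overlap for Myc and replicate 6 lay between, with a log2 fold change of -0.78 (limma adjusted p = 0.15). Without replicate 6 Myc was 1 of the 2 genes of the list that fell (-1.001 on the log2 scale, limma adjusted p = 0.00030).

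**Figure D5:**
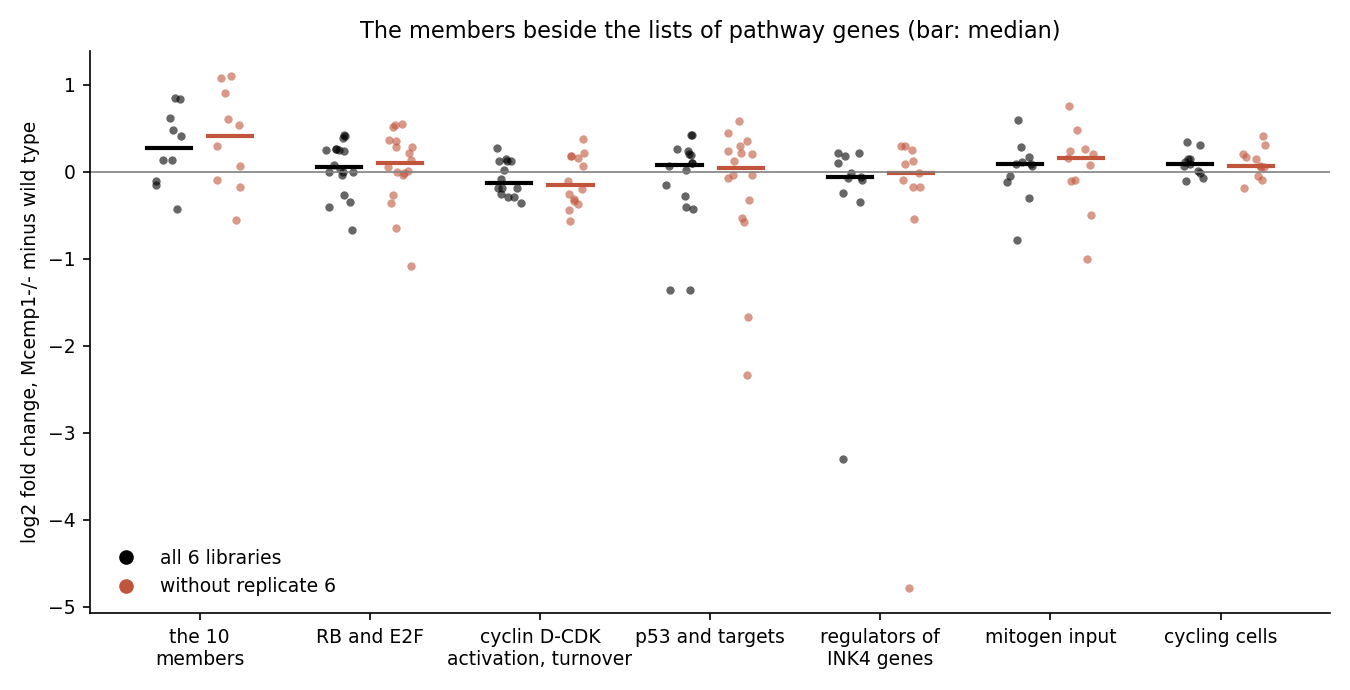
Log2 fold change, Mcemp1-/- minus wild type, of each tested gene of the 10 members and of 6 pathway lists, with all 6 libraries (black) and without replicate 6 (red). Bars are medians: 0.27 and 0.42 for the members, and between -0.15 and 0.16 for the lists.

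The genes whose log2 values followed a member most closely over the 6 libraries were sought for the member of each family with the highest mean in normalized counts, not corrected for length (per kb, Cdk4 is above Cdk6 and Cdkn2d above Cdkn2c). For Ccnd2 these were Ankrd50, Ccdc115 and Nab2 (Pearson correlation 0.9876, 0.9871 and 0.9839). For Cdk6 they were Mrc1, Kmt5c and Jmjd8 (0.9994, 0.9985 and 0.9984), of which Mrc1 encodes the macrophage mannose receptor. For Cdkn1a they were Grin2d, Col15a1 and Wdr62 (0.9981, 0.9981 and 0.9978), and for Cdkn2c Ski, Slc39a9 and Cyth3 (0.9993, 0.9977 and 0.9975). The points share libraries, and replicates 4 and 5 lie together, so high values are easily reached over 6 libraries and the correlations are a description only.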

How the data were processed

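RNA of cultured PC was sequenced as 6 KAPA mRNA HyperPrep libraries on an Illumina NextSeq instrument. The authors processed the reads in Partek Flow and deposited normalized counts per gene, close to CPM, with mm10 named in the submitters' processing notes. No source used here gives the aligner, annotation, strand setting or normalization. Of the gene starts, 97.4% equal GENCODE vM21, whose exons gave lengths and overlaps. Between 40.0% and 50.6% of the low values were whole multiples of a library's lowest value (within 0.01, up to 20 multiples), so whole reads could not be worked out and a count model was not used.

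The test was limma 3.58.1 (lmFit, trended eBayes, R 4.3.3) of log2(value + 0.479), a pseudocount of 0.5 CPM, for the 13413 genes averaging 1 CPM or more, with Benjamini-Hochberg adjustment across them. For a single gene, exact permutation of 3 against 3 libraries gives at least p = 0.1. Scripts were tested on simulated data. Members and lists were chosen with earlier results of these data known. Named were all members, the genes past the threshold and otherwise the 2 of highest mean in each list, cyclins the study names, and the 3 genes closest to the member of highest mean in each family; 1 gene that the rule names is not reported here. Promoter windows of 250 bases came from RefSeq (GRCm38.p6) by symbol, with 8 of 10 members matched (Ccnd1 and Ccnd2 were not). Alternatives were other pseudocounts, filters and scalings, eBayes without a trend and each library left out. Figures were drawn with matplotlib 3.10.9.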

Additional observations from a re-analysis of the deposited data

How the results depend on the processing

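With all 6 libraries, 0 of the 10 members were called under a pseudocount of 0.1 or 2 CPM, no filter, a mean of at least 5 (8 members tested, without Ccnd1 and Cdkn2a), median ratio scaling, removal of small RNA genes and eBayes without a trend, and the count over all genes stayed between 7 and 12 (10 as reported). No log2 fold change of a member changed sign under any alternative. Removing the small RNA genes moved the median of all genes to -0.07 on the log2 scale. Leaving out 1 library at a time gave 0 to 5640 called genes and 0 to 5 called members, with the upper value in both cases from leaving out the library labelled Mcemp1-/- replicate 6. Without it the log2 fold change of Mcemp1 was -4.19 (limma adjusted p = 0.00033) and with it -3.22 (adjusted p = 0.15), over a range of -4.19 to -2.67 with 1 library left out at a time, and the lists had 10 (RB and E2F), 9 (activation and turnover), 8 (p53), 3 (regulators of INK4 genes), 5 (mitogen input) and 5 (cycling cells) called genes against 0. In the fit without that library, 19.5% of all tested genes were called higher and 22.5% lower, which is the background for these list counts. The cause of the change in counts was not tested. No paired analysis was made because the sample labels name no pairs of libraries. Ccnd1 and Cdkn2a, at 0.912 to 4.03 normalized counts, are the members whose values depth limits most.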
